A study of Mus musculus with 6 samples.

Results

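The genes of mitochondrial and peroxisomal fatty acid oxidation, together with the peroxins that build the peroxisome, were followed in kidney of mice labelled 2M and 24M, taken here as 2 and 24 months of age. The 37 genes were taken by symbol from a list drawn up for the pathway and matched through Ensembl gene IDs. All 37 were found in both deposited tables, out of 12666 genes in the first table and 13606 in the separate one. They comprised 16 genes of mitochondrial oxidation, 10 genes of peroxisomal oxidation and transport, 9 peroxins, and Crat and Eci2, whose products work in both organelles.

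The study asked how the kidney transcriptome differs with natural aging and sequenced total RNA of kidneys from wild-type (WT) mice. The first table holds FPKM (fragment counts scaled by transcript length and library size) for 2M_1 and 2M_2, called the younger pair here, and for 24M_1 and 24M_2, called the older pair. The separate table holds 24M_3 and 24M_4, called the separate pair. The labels give no strain, sex or treatment. Whether each library is a different mouse is not stated either, and p-values therefore reflect the spread among these libraries alone, which may be technical. The Y-linked gene Ddx3y was read in every library, at 13.4 to 20.3 FPKM. The depth is unknown, since whole-read steps could not be found among the low FPKM.

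Fatty acids are the main fuel of the proximal tubule, whose cells are rich in mitochondria and peroxisomes. In mitochondria, acyl groups are carried in on carnitine and shortened by a cycle of dehydrogenation, hydration, a second dehydrogenation and thiolytic cleavage, with electrons passed on through the electron transfer flavoprotein. Peroxisomes take the very long and branched chains, shorten them with oxidases that make hydrogen peroxide, and hand the shortened products on as carnitine esters. Peroxins insert the membrane proteins of the organelle and import its enzymes.

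Crot fell with age, and it was the single gene of the 37 to pass the test. Crot encodes the peroxisomal carnitine octanoyltransferase, which loads shortened acyl groups onto carnitine for export to mitochondria. Crot lies on chromosome 5, 8966033 to 8997324, minus strand, on GRCm38, and overlaps no other protein-coding gene. Its level was 138.1 FPKM in 2M_1 and 140.9 in 2M_2, against 106.4 in 24M_1 and 98.2 in 24M_2. Both libraries of the older pair thus lay below both of the younger pair. The separate table gave still lower levels, 38.6 in 24M_3 and 52.9 in 24M_4. There 40.5% of all genes tested and listed in both tables lay below both 2M libraries. A difference between libraries of the 2 tables cannot be told apart from one between the tables. The mean went from 139.5 ± 2.01 to 102.3 ± 5.83 FPKM (SD, n = 2 per age), 0.733 times the 2M level, a log2 change of -0.44 ± 0.07 (SE) on the log2(FPKM + 1) scale with a limma adjusted p of 0.0469 over all genes tested. Of 11437 genes tested, 93 were called lower, or 0.813%, and 87 higher, or 0.761%. A total of 180 genes, or 1.57%, passed in either direction, against 1 of 37 here, or 2.7%, a share near the background. The call lay close to the threshold: the adjusted p was 0.0515 with a pseudocount of 0.1, 0.109 with plain empirical Bayes, and 0.0942 to 0.254 when any 1 of the 4 libraries was left out, and no gene at all passed without 2M_1 or without 2M_2. The size of the change stayed between -0.50 and -0.39 in those 4 fits.

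The promoter of Crot is shown because it belongs to the called gene, and that of Hadhb because it is shared head to head with Hadha, whose estimate lay farther from 0. Both are RefSeq windows on GRCm38.p6 from 250 bases before to 50 after the start site, read along the gene. Capitals mark the GC box GGGCGG, the CCAAT box and their reverse complements. The Crot window is chr5:8997097-8997396 on the minus strand, and the Hadhb window is chr5:30155003-30155302 on the plus strand.
Crot: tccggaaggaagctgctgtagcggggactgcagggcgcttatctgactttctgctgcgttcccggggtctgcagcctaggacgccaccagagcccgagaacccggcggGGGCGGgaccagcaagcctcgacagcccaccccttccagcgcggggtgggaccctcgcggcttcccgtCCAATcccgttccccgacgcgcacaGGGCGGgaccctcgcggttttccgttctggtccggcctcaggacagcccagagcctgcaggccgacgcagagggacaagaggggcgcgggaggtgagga
Hadhb: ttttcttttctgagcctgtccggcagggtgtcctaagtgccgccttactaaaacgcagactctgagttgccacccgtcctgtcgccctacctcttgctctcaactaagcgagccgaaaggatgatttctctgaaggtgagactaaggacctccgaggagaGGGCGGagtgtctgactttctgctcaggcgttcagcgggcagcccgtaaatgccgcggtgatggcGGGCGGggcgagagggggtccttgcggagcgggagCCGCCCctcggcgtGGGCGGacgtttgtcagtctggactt
The Crot window held 2 GC boxes and 1 CCAAT box. The RefSeq start sites of Hadha and Hadhb lie 273 bases apart on chromosome 5, and 228 bases of their windows are the same DNA (chr5:30155003-30155230). Over the 31 members with a RefSeq promoter, 24 held GGGCGG on either strand, or 77.4%, against 68.9% of the genes tested and 35.7% of all 32851 mouse promoter windows. AGGTCA, the core hexamer bound by PPAR and ERR receptors, was found in 5 of 31, or 16.1%, against 15.2% of the genes tested and 16.3% of all windows. The CCAAT box was found in 12, or 38.7%, against 42.4% of the genes tested and 37.4% of all windows. The 5 genes with AGGTCA were Acadm, Acadvl, Echs1, Phyh and Scp2. The direct repeat of AGGTCA spaced by a single base, and the extended ERR element TCAAGGTCA, were searched on both strands. Neither was found in the 31. The direct repeat was found in 0.0396% of all windows and 0.0444% of the genes tested, and the ERR element in 0.423% and 0.311%. At such rates 31 windows would rarely hold either, so their absence cannot tell these genes from others.

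**Figure D1:**
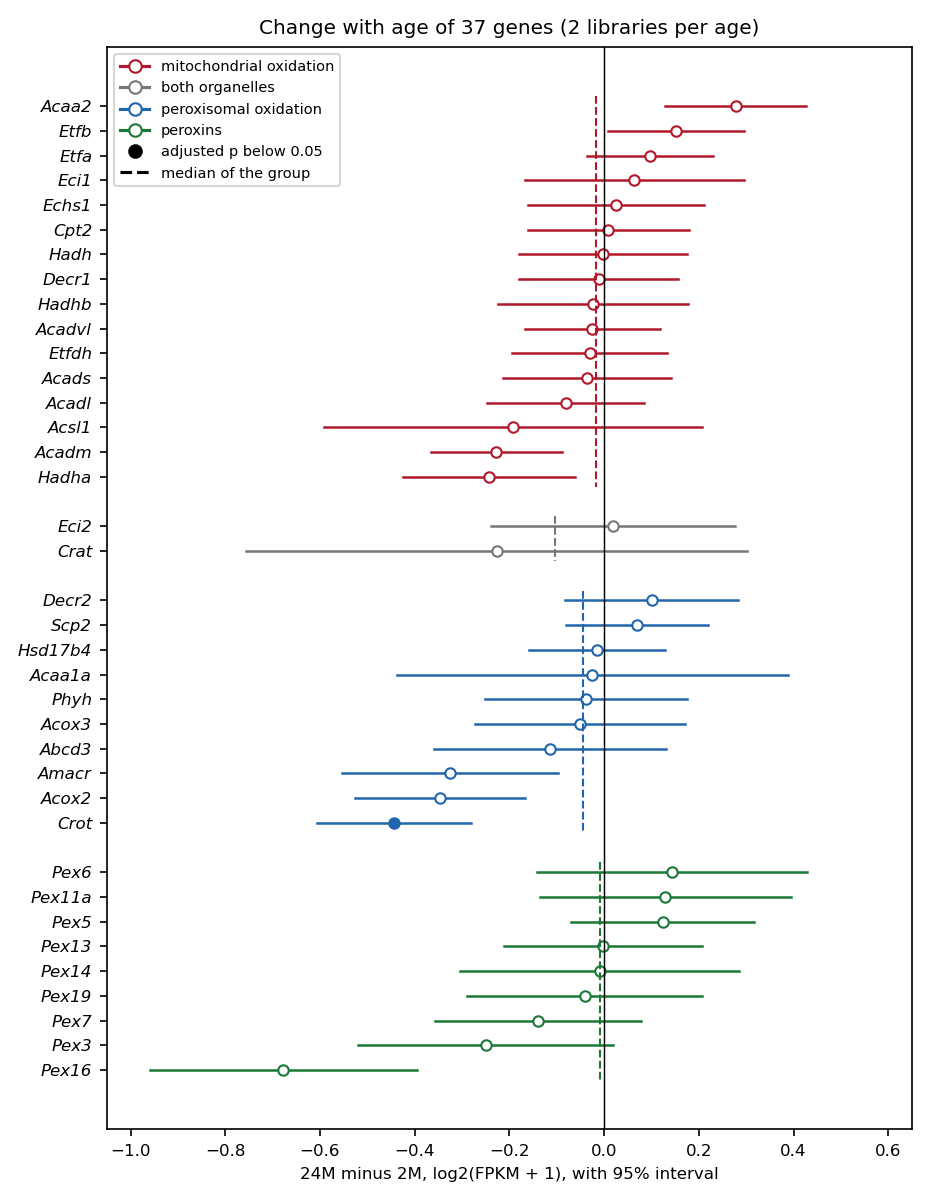
Difference between 24M_1, 24M_2 and 2M_1, 2M_2 on the log2(FPKM + 1) scale for the 37 genes, grouped by role (colours), with points for the estimate and lines for the 95% interval from limma. Crot is the single filled point (adjusted p of 0.0469), Pex16 lies farthest from 0 at -0.68, and the dashed group medians lie between -0.10 and -0.0097.

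None of the 16 mitochondrial genes passed the test, and the lowest limma adjusted p was 0.106. The median log2 change was -0.0175, beside -0.0245 over all genes tested. Over the 4392 tested genes at a mean of 10 FPKM or above in the first table it was -0.0008. Of the 16, 11 lay within 0.1 of 0, against 44.1% of all genes tested and 52.7% of those 4392. The 95% interval stayed inside ±0.5 for 15 of the 16, the exception being Acsl1. Summed over the 16 genes, the level was 1651 and 1703 FPKM in the younger pair and 1661 and 1683 in the older pair, so the ages overlapped.

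Entry into the mitochondrial pathway gave no called difference. Acsl1, which activates long-chain fatty acids to acyl-CoA, stood at 27.1 and 20.5 FPKM in the younger pair and at 22.3 and 18.9 in the older pair, and its libraries overlapped. Cpt2, the inner-membrane enzyme that moves acyl groups from carnitine back to coenzyme A, stood at 55.7 and 58.6 and at 59.5 and 55.6 FPKM. Its log2 change of 0.0092 had a 95% interval of -0.16 to 0.18.

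The 4 acyl-CoA dehydrogenases among the 37 carry out the initial step at different chain lengths, and the medium-chain enzyme had the lowest log2 change of the 4. Acadm, the most abundant of the 37 transcripts in the younger pair, stood there at 329.3 and 341.4 FPKM. It stood at 289.2 and 283.4 in the older pair, with no overlap between the ages. In the older and the separate pair Phyh stood higher than Acadm. The mean was 335.4 ± 8.61 against 286.3 ± 4.13 FPKM (SD, n = 2 per age), or -0.23 ± 0.06 (SE) on the log2 scale (limma adjusted p = 0.136). This did not pass, and the separate pair stood lower still, at 125.4 and 185.9 FPKM. The long-chain enzyme Acadl had 279.9 and 264.6 FPKM on average (log2 change -0.08), the very-long-chain Acadvl 76.4 and 75.1 (-0.025), and the short-chain Acads 51.4 and 50.1 (-0.036). Adjusted p values of these 3 lay between 0.595 and 0.868.

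The later steps of the cycle held the highest and the lowest log2 changes of the mitochondrial genes. Acaa2, the mitochondrial 3-ketoacyl-CoA thiolase of the final step, stood at 123.2 and 124.3 FPKM in the younger pair and at 154.5 and 146.0 in the older pair. Both older libraries were above both younger ones, but the separate pair stood lower than both younger ones, at 88.0 and 120.8 FPKM. The log2 change of 0.28 ± 0.06 did not pass (SE; limma adjusted p = 0.106).

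The trifunctional protein of the inner membrane is built from an alpha subunit with the hydratase and dehydrogenase (Hadha) and a beta subunit with the thiolase (Hadhb). Hadha stood at 27.4 and 28.9 FPKM in the younger pair and at 24.3 and 22.9 in the older pair, which is -0.24 ± 0.07 (SE) on the log2 scale (limma adjusted p = 0.195). Hadhb, at 10.3 and 9.74 in the younger pair and 9.90 and 9.74 in the older pair, had a log2 change of -0.023 (adjusted p = 0.921). In the separate pair Hadha was at 24.9 and 22.8 FPKM and Hadhb at 23.2 and 23.4. The 95% intervals overlapped, at -0.43 to -0.06 for Hadha and -0.22 to 0.18 for Hadhb, and the difference between the subunits was not tested. Within each library the ratio of Hadha to Hadhb FPKM was 2.67 and 2.97 in the younger pair, 2.46 and 2.35 in the older pair, and 1.07 and 0.976 in the separate pair. The separate table thus differed more from the first table than the ages did, and a gene on the opposite strand, Garem2, overlaps Hadha. Echs1 and Hadh, the hydratase and dehydrogenase for shorter chains, had log2 changes of 0.025 and -0.0028. Eci1 and Decr1, which prepare unsaturated chains for the cycle, had 0.06 and -0.012, with overlapping ages in all 4 genes.

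The electron acceptors stood slightly higher in the older pair without passing. Etfb, the beta subunit of the electron transfer flavoprotein, was at 250.9 and 256.1 FPKM in the younger pair and 274.4 and 289.2 in the older pair, or 0.15 ± 0.06 (SE) on the log2 scale (limma adjusted p = 0.277). The separate pair of Etfb was at 166.3 and 268.2 FPKM. Etfa, the alpha subunit, was at 195.3 and 191.8 and at 207.3 and 206.9 FPKM (log2 change 0.097, adjusted p = 0.429). Neither gene overlapped between the ages, and the ratio of Etfb to Etfa FPKM in a library ran from 1.12 to 1.40 over all 6. Etfdh, the oxidoreductase that passes these electrons to ubiquinone, had 32.7 and 31.98 FPKM on average and overlapped between the ages.

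**Figure D2:**
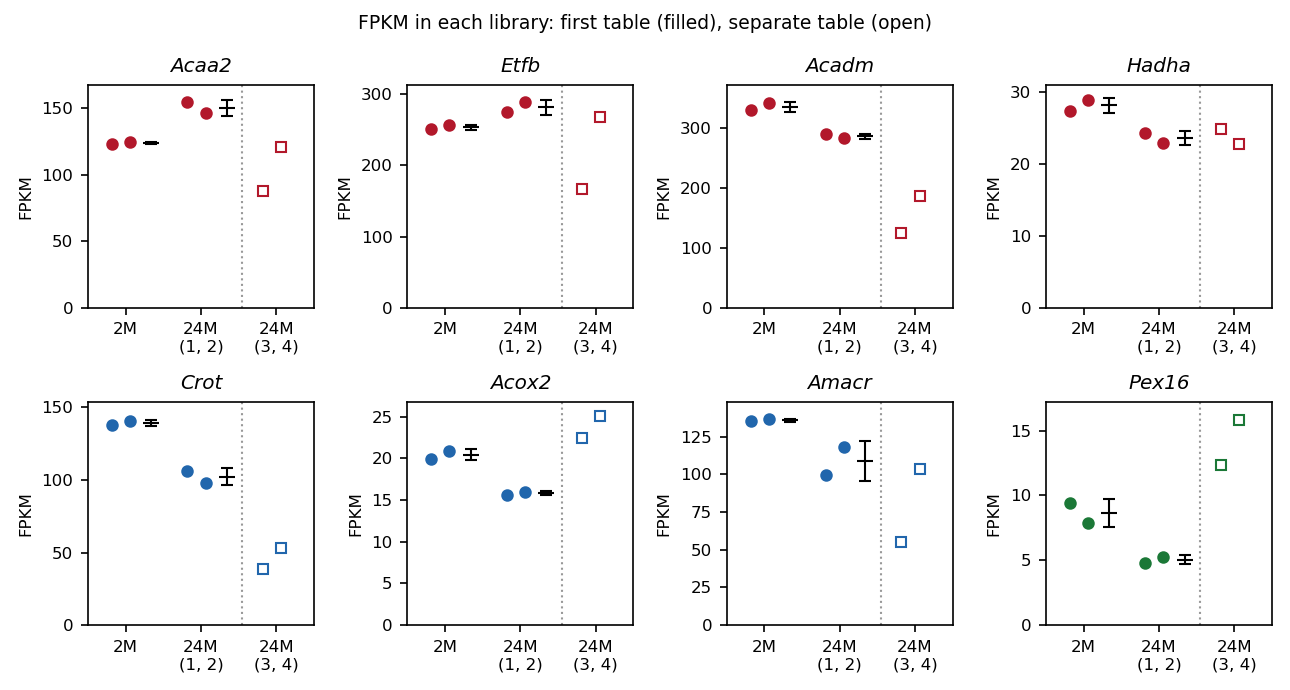
FPKM of 8 genes in each library, with filled circles for the first table (2M_1, 2M_2, 24M_1, 24M_2), open squares for 24M_3 and 24M_4 of the separate table, and black bars for the mean ± SD of 2 libraries. Crot lies near 140 FPKM in the younger pair and near 100 in the older pair, and Pex16 and Acox2 lie below 2M in the first table but above it in the separate one.

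Among the peroxisomal genes, Acox2 and Amacr also lay below both libraries of the younger pair in both of the older pair, but unlike Crot did not pass. The log2 change was below 0 for 8 of the 10 and above 0 for 2, while 56.3% of all genes tested lay below 0. A single gene was called lower and none higher. The median log2 change was -0.045, beside -0.0245 over all genes tested and -0.0008 over those at a mean of 10 FPKM or above. The median moved to -0.14 without 2M_1 and to -0.16 without 24M_1, and it was -0.0067 without 2M_2 and -0.011 without 24M_2. The intervals of 7 of the 10 genes stayed inside ±0.5.

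Acox2, the oxidase of branched chains and bile acid intermediates, stood at 19.95 and 20.9 FPKM in the younger pair and at 15.7 and 16.01 in the older pair. The mean went from 20.4 ± 0.656 to 15.8 ± 0.247 FPKM (SD, n = 2 per age), or -0.35 ± 0.07 (SE) on the log2 scale (limma adjusted p = 0.101). In the separate table Acox2 was at 22.5 and 25.1 FPKM, above both 2M libraries. Amacr, the racemase that turns branched acyl-CoA into the form the oxidase accepts, stood at 135.3 and 136.8 FPKM in the younger pair and at 99.5 and 118.1 in the older pair. Its log2 change was -0.33 ± 0.09 (SE; limma adjusted p = 0.177), and the separate pair was at 55.3 and 103.4 FPKM. Without 24M_1 the change of Amacr was -0.20. Both genes were free of overlap between the ages in the first table, and they took opposite sides of 2M in the separate one.

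The remaining peroxisomal genes lay near their 2M levels in the older pair. Phyh, which starts the breakdown of phytanic acid and is the most abundant of the 10, stood at 291.4 and 338.3 FPKM in the younger pair and at 313.1 and 298.6 in the older pair, with 246.3 and 316.6 in the separate pair. Scp2, which encodes a peroxisomal thiolase and a sterol carrier, stood at 221.3 and 236.7 and at 240.0 and 240.1 (log2 change 0.07, adjusted p = 0.618). Hsd17b4, the bifunctional hydratase and dehydrogenase of branched chains, had a log2 change of -0.014 with an interval of -0.16 to 0.13. Abcd3, the membrane transporter that brings acyl-CoA in, had 88.1 and 81.3 FPKM on average (-0.11), the branched-chain oxidase Acox3 15.6 and 15.0 (-0.05), and the auxiliary reductase Decr2 19.9 and 21.4 (0.10). Decr2 was the sole one of these 3 with no overlap between the ages, at 19.2 and 20.5 FPKM against 21.0 and 21.7, and the separate pair was at 28.96 and 30.5. Adjusted p values of these 6 genes lay between 0.5496 and 0.932. In the separate pair, 3 of them lay below both younger libraries, at 46.7 and 59.3 FPKM for Abcd3, 169.8 and 205.5 for Scp2, and 61.99 and 67.1 for Hsd17b4.

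The peroxisomal thiolase Acaa1a, at 10.5 and 12.5 FPKM in the younger pair and 13.1 and 9.64 in the older pair, overlapped between the ages, with a wide interval of -0.44 to 0.39. Its paralog Acaa1b, no member of the 37, was at 73.3 and 75.2 FPKM in the younger pair, 99.6 and 110.8 in the older pair and 112.6 and 144.4 in the separate pair. It rose from 74.3 ± 1.34 to 105.2 ± 7.91 FPKM (SD, n = 2 per age; log2 change 0.49 ± 0.07 SE, limma adjusted p = 0.0471). That call ended with a pseudocount of 0.1 (adjusted p = 0.0523), without the filter (0.0504), with quantile normalization (0.0520), with plain empirical Bayes (0.104) and without any 1 library (0.0795 to 0.273). Both genes lie on chromosome 9, and how reads were shared between them is not stated, so their values are uncertain. Myd88 and Slc22a14 also overlap Acaa1a on the opposite strand.

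Of the enzymes placed in both organelles, neither passed. Crat, the carnitine acetyltransferase that exports acetyl groups, stood at 19.5 and 13.6 FPKM in the younger pair and at 12.3 and 15.5 in the older pair, and the difference within the younger pair was the widest of any of the 37 genes at this age (0.49 on the log2 scale). Eci2, an isomerase for unsaturated chains, had 11.5 and 11.7 FPKM on average (log2 change 0.019).

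None of the 9 peroxins passed, and Pex16 came nearest. Pex16, Pex3 and Pex19 together place proteins in the peroxisomal membrane. Pex16 stood at 9.42 and 7.89 FPKM in the younger pair and at 4.78 and 5.27 in the older pair, a mean of 8.66 ± 1.08 against 5.02 ± 0.344 (SD, n = 2 per age). Its log2 change of -0.68 ± 0.11 (SE) was the farthest from 0 of the 37 genes, with a limma adjusted p of 0.0597. In the separate table it stood at 12.4 and 15.8 FPKM, above both 2M libraries. Large2 overlaps Pex16 (chromosome 2, 92374676 to 92381217, plus strand, GRCm38) on the opposite strand, and whether counting used strand is not stated, so the value is uncertain. Pex3 stood at 7.61 and 7.72 FPKM in the younger pair and 5.72 and 6.90 in the older pair (-0.25 on the log2 scale, limma adjusted p = 0.325), and Pex19 had 15.9 and 15.4 on average (-0.041). Without 24M_1 the change of Pex3 was -0.13.

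The import receptors stood on different sides of 2M. Pex5, the receptor for the common C-terminal targeting signal, was at 14.1 and 13.2 FPKM in the younger pair and 15.0 and 14.8 in the older pair (0.12 on the log2 scale, limma adjusted p = 0.482). Pex7, the receptor for the N-terminal signal carried by thiolase and phytanoyl-CoA hydroxylase, was at 9.004 and 9.65 and at 8.63 and 8.11 FPKM (-0.14, adjusted p = 0.480). The separate pair was at 16.5 and 17.5 FPKM for Pex5, 5.34 and 5.56 for Pex7, and 6.70 and 5.65 for Pex3. Pex5 and Pex7 both lacked overlap between the ages, neither passed, and the difference between them was not tested. The docking proteins Pex13 and Pex14 had log2 changes of -0.0024 and -0.0097. Pex6, the ATPase that recycles Pex5, had 0.14, or 0.0034 without 24M_2. Pex11a, which promotes division of peroxisomes and had the highest mean level of the peroxins in the first table, had a log2 change of 0.13. Pex11a stood at 18.7 and 15.3 FPKM in the younger pair, 18.6 and 18.7 in the older pair, and 20.5 and 21.7 in the separate pair. The 9 peroxins had a median of -0.0097, or -0.0495 without 2M_2, and it was above 0 without 24M_1 (0.0205) and with quantile normalization (0.0091).

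Set against each other, the mitochondrial genes had a slightly higher median log2 change (-0.0175) than the peroxisomal enzymes (-0.045), and the peroxins the highest (-0.0097). This order did not hold without 2M_2, where the medians were 0.0070, -0.0067 and -0.0495, or without 24M_2, where they were -0.022, -0.011 and -0.025. Nor did the order hold among the tested genes of the further lists of the pathway given below. There the median was -0.1009 over 21 other mitochondrial genes, with 17 below 0. It was -0.0259 over 36 other peroxisomal genes, with 22 below 0, and -0.0286 over 7 other peroxins. The order thus depended on which genes were listed. The mean log2(FPKM + 1) of the mitochondrial genes minus that of the peroxisomal ones was 0.112 and 0.031 in the younger pair, 0.147 and 0.203 in the older pair, and 0.251 and 0.216 in the separate table. Both libraries of the older pair lay above both younger ones, but the step from 2M_1 to 24M_1 was smaller than that between the younger libraries. The separate pair also lay above both, where a difference from 2M cannot be told apart from one between the tables. No p is given, since 2 libraries against 2 allow no exact two-sided p below 0.333 and the genes were chosen with results known.

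In the first table, 6 of the 37 genes were higher in both older libraries than in both younger ones, or 16.2%, and 9 were lower, or 24.3%. Of all genes tested, 20.8% were higher and 29.6% lower in this way, so the shares were near the background. At an unadjusted p below 0.05, 6 of the 37 were lower (16.2%, against 9.94% of all genes tested) and 2 higher (5.41%, against 6.96%). For 14 of the 37 genes, or 37.8%, the age difference was larger than both differences within an age, against 37.2% of all genes tested. The median difference was 0.08 between the ages, 0.09 within the younger pair and 0.08 within the older pair on the log2 scale.

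Levels spanned a wide range that followed the roles. In the younger pair the median level was 54.3 FPKM over the mitochondrial genes, 87.6 over the peroxisomal ones and 9.54 over the peroxins, against 6.78 over all genes tested. All 37 genes stood above the 55th percentile of the first table, with Pex16 lowest (55.4) and Acadm highest (99.3). Together they held 0.980% and 0.991% of the FPKM sum in the younger pair, 0.955% and 0.952% in the older pair, and 0.678% and 0.792% in the separate pair.

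**Figure D3:**
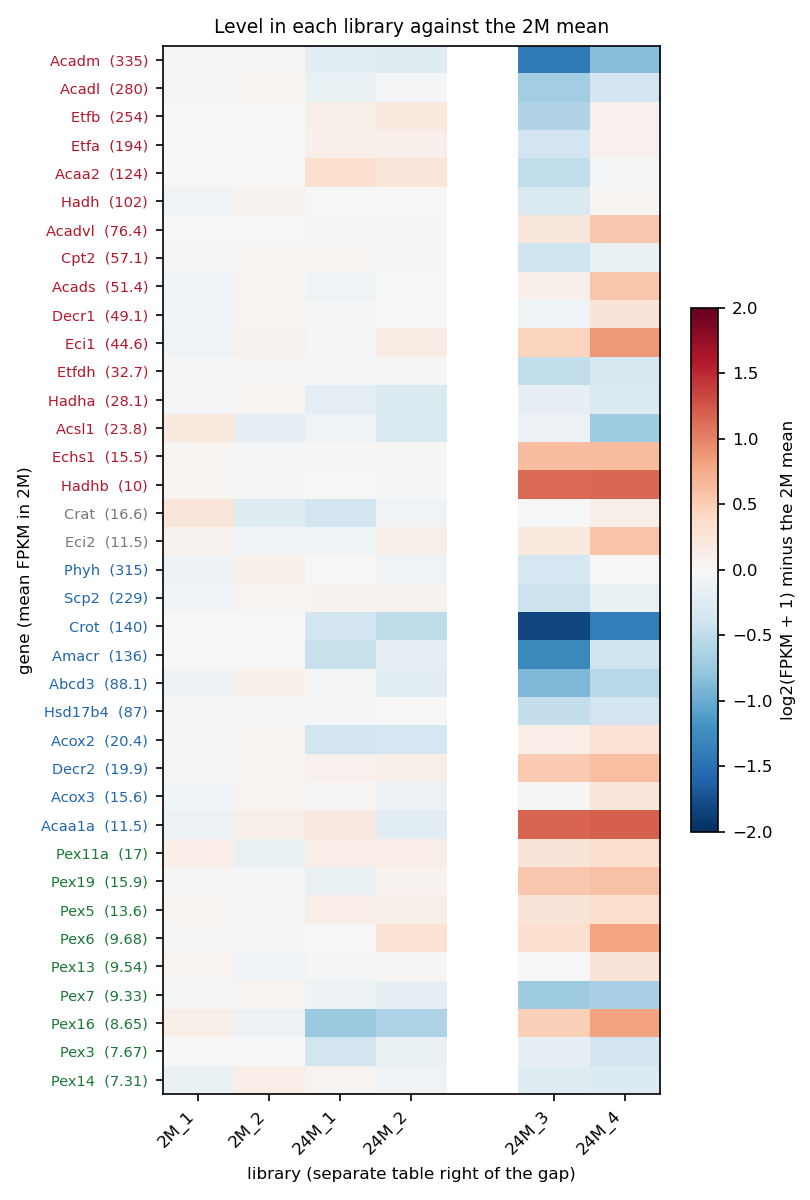
Level of each gene in each library as log2(FPKM + 1) minus the mean of the younger pair (colour scale), with genes coloured by role and ordered by the mean FPKM in the younger pair given in brackets. The 4 columns of the first table are pale for most genes, while the separate pair right of the gap are strongly lower for Crot and Acadm and higher for Hadhb and Acaa1a.

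The separate table gave another picture of the same age. Of the 37 genes, 14 stood below both 2M libraries in the separate pair and 14 above, or 37.8% each, against 40.5% and 32.1% of all genes tested and listed in both tables. After scaling each library to the same sum over shared genes the counts were 18 below (48.6%, background 45.3%) and 13 above (35.1%, background 25.1%). Between the tables at the labelled age 24M, the ratio of mean FPKM in the separate pair to that in the older pair ran from 0.447 for Crot to 2.81 for Pex16. It was over 1.5 for 7 genes, among them Acaa1a (2.40) and Hadhb (2.37), and under 1/1.5 for 4, among them Acadm (0.544). By role, 5 mitochondrial genes stood above and 6 below, 3 peroxisomal genes above and 5 below, and 5 peroxins above and 3 below as deposited. A difference between these libraries cannot be told apart from one between the tables.

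Within the separate table, 24M_3 was lower than 24M_4 in 33 of the 37 genes, or 89.2%, against 37.5% of all genes tested and listed there. With the libraries scaled to the same sum, it was 23 of 37, or 62.2%, against 24.5%. Amacr had the widest gap, at 55.3 and 103.4 FPKM, and Acsl1, Hadha, Pex3 and Pex14 stood higher in 24M_3. The summed level of the 7 macrophage markers was 842.9 FPKM in 24M_3 and 120.9 in 24M_4, against 55.0 to 63.4 in the younger pair and 72.5 to 73.6 in the older pair. The 21 proximal tubule markers summed to 10620 FPKM in 24M_3 and 22500 in 24M_4, of which the androgen-dependent Kap made up 6274 and 17110. The part of other cells in this gap was not tested, and in bulk tissue fewer cells of a type and less RNA per cell cannot be told apart.

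Markers of other cell types moved between the ages of the first table. Of 9 listed adipocyte markers 7 were called lower. The sum of the 9 was 27.7 and 31.4 FPKM in the younger pair against 0.563 and 0.533 in the older pair. Adipoq, Cfd, Plin1, Ucp1 and Cox8b were listed at 0 in both libraries of the older pair. In the separate pair, whose table does not list Plin1, Ucp1 and Retn, the sum was 1.02 and 7.25. Brown fat is rich in mitochondrial oxidation enzymes, and the part of adipocytes in the values above was not tested. Urothelium markers summed to 28.99 and 23.1 FPKM in the younger pair and 0.974 and 12.6 in the older pair, none of 6 called. Their sums in the separate pair were 3.89 and 2.60. Red blood cell markers summed to 196.5 and 155.5 FPKM in the younger pair and to 23.5 and 48.6 in the older pair, with Hbb-bt called lower of 5. In the separate pair they summed to 199.9 and 167.8, so those libraries of 24M did not share the lower level. The 9 immediate-early genes, listed here as a sign of tissue handling, summed to 31.3 and 66.8 in the younger pair and 159.0 and 208.7 in the older pair. Of these genes, 4 were called higher. In the separate pair, whose table does not list Fosb, the sums were 108.2 in 24M_3 and 25.6 in 24M_4, the latter below both younger libraries. The part of handling in these values was not tested. The proximal tubule markers summed to 12740 and 12800 FPKM in the younger pair and to 12850 and 13490 in the older pair. Most of these sums was Kap alone, at 8708 and 8536 FPKM in the younger pair and 8508 and 9372 in the older pair. Of the 21 markers, Slc22a8 was called higher and Slc22a7 and Acsm3 lower. Of the other lists, C1qa of the macrophage markers, Jchain of the lymphocyte markers and Slc12a3 of the distal tubule were called higher, and Aqp4 of the collecting duct lower. The lymphocyte markers, of which Jchain alone was tested, summed to 1.53 and 2.65 FPKM in the younger pair and 17.8 and 13.1 in the older pair. Their sums were 195.7 and 63.5 in the separate pair, of which Jchain made up 179.2 and 59.5. Cd3e, Cd8a, Cd79a and Ms4a1 are listed in the separate table alone, so the sums of the 2 tables hold different genes.

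A list of 100 other genes of the pathway was set beside the 37, of which 93 were tested. Of these, Hao2 and Acaa1b rose and Acsm3 fell, or 3.23% called, against 1.57% of all genes tested. The median log2 change of the 93 was -0.044, beside -0.0245 over all genes tested. Hao2, a peroxisomal hydroxyacid oxidase abundant in kidney, stood at 126.5 and 120.3 FPKM in the younger pair and at 302.3 and 264.6 in the older pair (log2 change 1.19 ± 0.08 SE, limma adjusted p = 0.00872). The separate pair reached 375.6 and 309.3 FPKM, so all 4 libraries of 24M lay above 2M. The separate pair also lay above both 2M libraries for 32.1% of all genes tested and listed in both tables. The call was lost without 2M_1 (adjusted p = 0.120) and without 2M_2 (0.130).

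Of the 16 tested genes of fatty acid uptake and activation, 1 was lower and none higher. This was Acsm3, which activates medium-chain acids in mitochondria, at 135.2 and 148.6 FPKM in the younger pair and 81.8 and 65.7 in the older pair (log2 change -0.94 ± 0.12 SE, limma adjusted p = 0.0374). Its level was 17.2 FPKM in 24M_3 and 73.7 in 24M_4, and the call ended with plain empirical Bayes (0.0664), without 2M_1 (0.219), without 2M_2 (0.217) and without 24M_2 (0.0554). The next smallest p values were those of Cd36, the fatty acid translocase, with 123.0 and 96.6 FPKM (adjusted p = 0.0795), and Acsm1, with 93.5 and 69.0 (0.0967).

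None of the 21 other mitochondrial genes passed, in either direction. Cpt1a, the outer-membrane carnitine palmitoyltransferase that controls entry into mitochondria, was at 71.1 and 71.2 FPKM in the younger pair and 66.4 and 66.1 in the older pair (-0.10 on the log2 scale, limma adjusted p = 0.438). It is named for its place in the pathway, after its values were seen. Among the smallest p values were those of the muscle form Cpt1b, with 4.97 and 3.96 FPKM (adjusted p = 0.289), and the thiolase Acat1, with 307.8 and 276.8 (0.349).

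Of 36 tested peroxisomal genes outside the 37, Hao2 and Acaa1b were higher and none was lower, and Nudt19, a peroxisomal coenzyme A hydrolase, came next with 199.8 and 158.2 FPKM (adjusted p = 0.197). None of the other 7 peroxins passed. Pex11g, among those of smallest p, had 3.76 and 3.33 FPKM (adjusted p = 0.582).

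**Figure D4:**
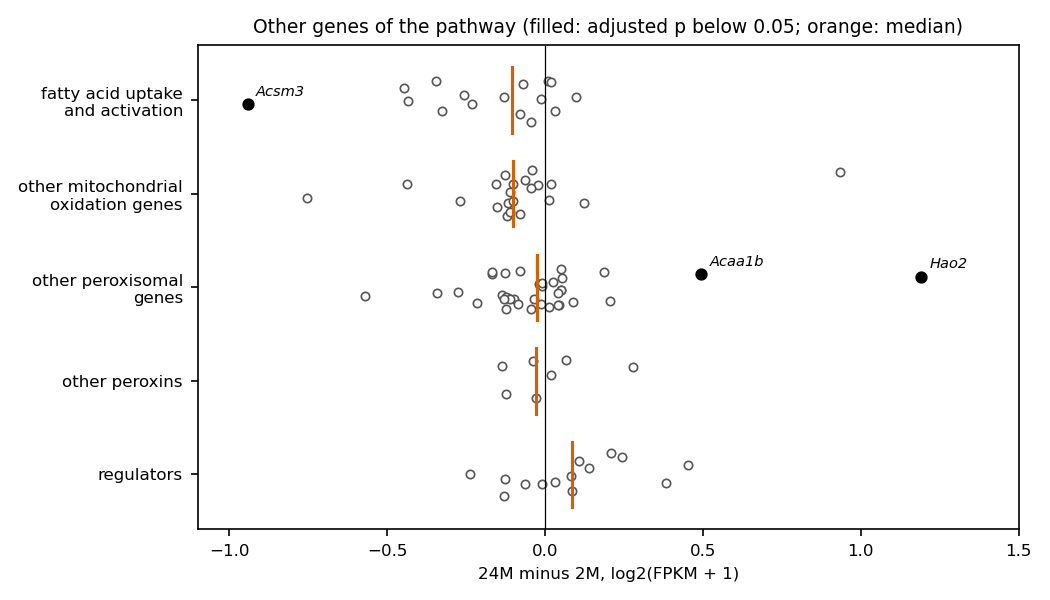
Difference between 24M and 2M on the log2(FPKM + 1) scale for the tested genes of 5 further lists of the pathway, a point per gene, with filled points for an adjusted p below 0.05 and orange lines for the median of each list. Hao2 at 1.19 and Acaa1b at 0.49 are the called increases and Acsm3 at -0.94 the called decrease.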

How the data were processed

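Total RNA of kidney was sequenced. The authors deposited 2 separate tables, whose values are FPKM per the file headers. Per the submitters' processing notes, the build was mm10 and the tools named, with no role or order, include DESeq2 1.20.0, featureCounts 1.5.0-p3 and HISAT2 2.0.5. How the FPKM were computed, and with which annotation, is not given in the sources used here. Groups and replicate numbers came from the sample titles. Symbols were matched by Ensembl ID, ignoring the version (18 IDs of the first table had none). Coordinates are from GENCODE M21 on GRCm38 and promoters from RefSeq.

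A gene entered the test with 1 FPKM or above in 2 or more of the first table's 4 libraries (11437 genes). Testing used limma 3.58.1 in R 4.3.3 on log2(FPKM + 1). Age was the only term, empirical Bayes used an intensity trend and robust variance, and the threshold was a Benjamini-Hochberg FDR of 0.05 over all genes tested. The log2(FPKM + 1) scale understates the change of low genes. 24M_3 and 24M_4 entered no fit. The fit was tested on simulated data. Values in every library are given for called members, for the 4 of smallest p among the mitochondrial genes, the peroxisomal ones (with those in both organelles) and the peroxins, and for the most abundant of each. Of the other lists, called genes and the 3 of smallest p are named, except that some are not reported here. The members and lists were chosen with earlier results of these data known. Alternatives were another pseudocount, no filter, 2 scalings, plain empirical Bayes, a replicate block and leaving out each library. Tables were handled with Python 3.11.15 and pandas 2.3.3.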

Additional observations from a re-analysis of the deposited data

Results flagged for a closer look

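Of the 37 genes, 4 had a library of 24M far from the other 3 relative to their whole range, or 10.8%. The rule flags about 1 in 20 by chance where all 4 libraries share a single distribution. Hadh stood at 83.5 FPKM in 24M_3, Etfa at 148.7 and Etfb at 166.3, each below the other 24M libraries. Pex13 stood at 11.6 FPKM in 24M_4, above the others. These groups of 4 join libraries of 2 separate tables, so that rate is no background for the 10.8%. The share flagged over all genes is not given here.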

How the results depend on the processing

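Leaving out a library of 2M ended all calls. Over the 4 fits without a library, between 0 and 112 genes passed, 0 to 37 of them higher and 0 to 76 lower, and none of the 37 members did. In these fits the lone library of an age is assumed to vary like the other pair. With plain empirical Bayes 108 genes passed, 53 higher and 55 lower, and 0 members. With a pseudocount of 0.1, 137 genes and 0 members passed. Crot passed in 3 of the 10 alternatives: no filter (adjusted p = 0.0495), the same FPKM sum (0.0346) and quantile normalization (0.0479). No other member passed in any of the 10. The labels do not say whether equal replicate numbers pair the libraries. The correlation of deviations from the age means was -0.0592 between same-numbered libraries. With 2 libraries per age the deviations mirror each other, so this value cannot decide it. With the replicate number as a block 43 genes passed, 25 higher and 18 lower, and 0 members (Crot adjusted p = 0.133). Under the block Acsm3 (0.120) and Acaa1b (0.112) no longer passed, and Hao2 did (0.0380).

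The median log2 change of the mitochondrial genes ran from -0.022 to 0.0070 when a library was left out, that of the peroxisomal genes from -0.16 to -0.0067 and that of the peroxins from -0.0495 to 0.0205. Counting Crat and Eci2 with either organelle left its median at -0.0175 or -0.045. The log2 change of 17 members, none called, crossed 0 when a library was left out. It ran from -0.039 to 0.058 for Cpt2, from -0.086 to 0.014 for Acads, from -0.014 to 0.064 for Echs1, from -0.077 to 0.071 for Hadh, from -0.058 to 0.011 for Hadhb, from -0.028 to 0.16 for Eci1. It also ran from -0.059 to 0.035 for Decr1, from -0.47 to 0.016 for Crat, from -0.082 to 0.12 for Eci2, from -0.12 to 0.018 for Acox3, from -0.037 to 0.0085 for Hsd17b4, from -0.23 to 0.18 for Acaa1a. The remaining ranges were -0.15 to 0.069 for Phyh, -0.0061 to 0.26 for Pex11a, -0.05 to 0.045 for Pex13, -0.14 to 0.12 for Pex14, -0.16 to 0.073 for Pex19. With quantile normalization it was -0.0053 for Cpt2, 0.0214 for Pex13 and 0.0091 for Pex14, each of the opposite sign to the value as reported. The depth is unknown.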

Other observations

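Regulators of fatty acid oxidation were read beside the enzymes. None of 14 passed, and their median log2 change was 0.08. The smallest p values were those of the transcription factor Klf15, with 28.6 ± 4.39 FPKM in the younger pair and 37.4 ± 0.303 in the older pair (SD, n = 2 per age; limma adjusted p = 0.184), of the proximal tubule factor Hnf4a, with 109.9 ± 3.58 and 127.1 ± 3.79 (0.187), and of the nuclear receptor Ppard, with 10.8 ± 2.63 and 15.1 ± 1.86 (0.3002). Ppara, the fatty acid receptor that drives many of these enzymes in liver, was at 10.98 and 9.41 FPKM in the younger pair, 12.6 and 11.8 in the older pair, and 6.23 and 2.99 in the separate table (limma adjusted p = 0.305). The coactivator Ppargc1a had 22.7 and 20.6 FPKM (adjusted p = 0.462) and the orphan receptor Esrra 16.2 and 17.6 (0.585). Ppara, Ppargc1a and Esrra were chosen after their values were seen.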
